A study of Mus musculus with 18 samples.

Results

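RNA sequencing libraries of 3T3-L1 cells, a mouse embryonic fibroblast line that turns into fat-storing adipocytes in culture, were compared before and after differentiation in cells whose titles name RIPK3. The comparison took the 3 libraries titled J7 RIPK3 against the 3 titled J0 RIPK3, which is 6 of the 18 libraries of the series. J0 cells are labelled untreated and undifferentiated, J7 cells differentiated; the labels name no induction mixture and no batch. All groups share the 3T3-L1 background, and the control groups (J0_CTL and J7_CTL, 3 libraries each) carry no named knockout. The labels give no guide, no allele and no count of clones, so a clone and a pool of edited cells cannot be told apart. Nothing states that replicates of a group came from different dishes, so a p-value speaks for the spread among these libraries alone, and that spread may be technical.

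After differentiation, the genotype field and the title of a knockout sample disagree: libraries titled J7 RIPK3 carry the genotype MLKL-/-, and libraries titled J7 MLKL carry RIPK3-/-. Groups follow the titles and the matching column names here, and RIPK3-/- cells stands throughout for the libraries titled RIPK3. With the genotype field as the grouping, 1513 genes were higher and 1341 lower. Those counts come from fewer genes than the counts by title below. Libraries titled J7 MLKL have counts for 7868 genes, against 13061 in those titled J7 RIPK3. Differences from control cells were not run under that grouping and rest on the titles. Of 245 genes named in the text that have a value under that grouping, 48 lost their call and 59 changed sign. Of 7 genes over 8-fold apart between J0_RIPK3 and J0_CTL, 7 were over 2-fold apart in the same direction at J7 by the titles. Of 24 such genes between J0_RIPK3 and J0_MLKL, 24 kept their direction and 0 had the opposite one. Ripk3 itself (chr14:55784995-55788865 in mm10), the kinase that starts necroptosis by phosphorylating MLKL, was still read in every library: 14.7, 17.3 and 15.8 CPM in J0_RIPK3 and 10.2, 10.8 and 11.7 CPM in J7_RIPK3. It lay lower in each J7 library than in each J0 library (log2 fold change -0.57 ± 0.09 SE, edgeR adjusted p = 7.68e-06), while the means in control cells were 18.2 ± 1.4 to 18.3 ± 0.842 CPM. Mlkl, the pseudokinase that breaks the plasma membrane, was at 15.6, 14.5 and 17.7 CPM in J0_RIPK3 and 32.3, 26.5 and 28.4 CPM in J7_RIPK3, higher in every J7 library (log2 fold change 0.83 ± 0.08 SE, adjusted p = 6.84e-09). These counts span whole genes and do not show whether the edited exon is intact. In the MLKL-titled libraries both genes had lower means than in the RIPK3-titled ones of the same day. Mlkl was at 8.05 ± 1.45 to 15.1 ± 1.24 CPM (J0 to J7) and Ripk3 at 7.45 ± 1.87 to 9.23 ± 2.4 CPM. The level of Ripk3 alone therefore does not settle whether the titles or the genotype field are right.

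Adipogenesis in these cells runs through an early wave of C/EBPβ and C/EBPδ, which switch on PPARγ and C/EBPα. That pair then holds each other on and drives genes of lipid storage, fatty acid handling and insulin response. Fibroblast matrix and contractile genes are shut down, and the cells leave the cell cycle. RIPK3 is best known for cell death and has been studied in adipose tissue for inflammation.

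Libraries held 20.2 to 36.9 M reads. Counts of 12640 genes were present in all 6 libraries and 11798 were tested with edgeR's quasi-likelihood test, Benjamini-Hochberg adjusted p under 0.05 being called a change. Of these, 5813 genes (49.3%) were higher and 5720 (48.5%) lower in J7_RIPK3. The authors' tables list only genes that passed their own test, so nearly every gene tested was called, and the size of a change separates genes better than the call. By size, 2665 genes (22.6%) were over 2-fold higher and 2926 (24.8%) over 2-fold lower, and 711 and 668 were over 8-fold higher and lower. The median log2 fold change of all genes tested was 0.038. It and the shares above are the background for every list below. For the change in RIPK3-/- cells against that in control cells, 18.4% of all genes were called more positive and 20.6% more negative. Levels are CPM (a library's reads scaled to a common total of mapped reads), as means ± SD of 3 libraries or as the 3 libraries in turn, and log2 fold changes are J7_RIPK3 over J0_RIPK3 as fitted. The members of each group of genes were chosen with earlier results of these data known.

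The transcription factors of adipogenesis did not move as 1 block. Of 21 tested, 14 rose and 7 fell, against 49.3% and 48.5% of all genes, with a median log2 fold change of 0.67. Pparg, the master regulator of fat cells, was at 32.7, 30.5 and 31.3 CPM in J0_RIPK3 and 387, 369.6 and 353 CPM in J7_RIPK3. Cebpa, its partner, was at 30.1, 30.8 and 30.5 CPM in J0_RIPK3 and 393, 389 and 365 CPM in J7_RIPK3. In both genes the groups are far apart and the libraries of a group lie close together. The steepest rises were in factors at low levels before differentiation: Klf15, a glucocorticoid-induced activator of adipogenesis, went from 0.0236 to 95.2 CPM, Mlxipl (ChREBP, the glucose-sensing lipogenic factor) from 0.00902 to 4.86 CPM, and Nr1h3 (the oxysterol receptor LXRα) from 2.53 to 171 CPM. Ppargc1b, a coactivator of mitochondrial genes, went from 0.83 to 40.9 CPM, while its relative Ppargc1a fell from 14.8 ± 0.136 to 8.7 ± 1.31 CPM. The early factors took opposite courses: Cebpb rose from 82.7 ± 8.05 to 241 ± 26.3 CPM and Cebpd fell from 95.9 ± 6.33 to 57.4 ± 4.24 CPM. Klf4 had the lowest fold change of the group, from 94.2 ± 4.42 to 30.6 ± 2.03 CPM, followed by Ppargc1a, Cebpd and Tle3 (95.9 to 57.5 CPM). In control cells Pparg went from 26.5 to 491 CPM and Cebpa from 16.9 to 397 CPM. Their log2 fold changes were smaller in RIPK3-/- cells, with differences (RIPK3-/- minus control, the interaction) of -0.62 ± 0.06 SE and -0.87 ± 0.06 SE (edgeR adjusted p = 6.36e-10 and 8.26e-12). The list as a whole did not share that direction. Of 19 members tested for the difference, 7 changed more positively than in control cells and 4 more negatively, against 18.4% and 20.6% of all genes (median 0.18).

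**Figure D1:**
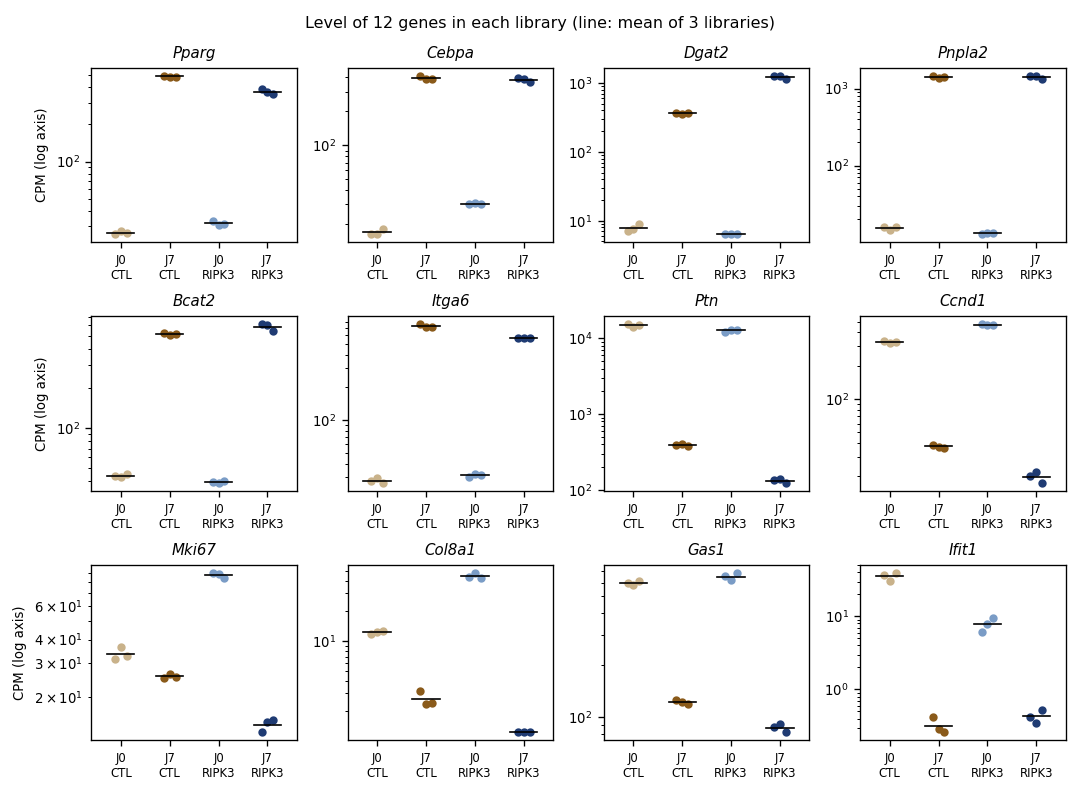
Level of 12 genes (CPM, log axis) in each of the 12 libraries of control and RIPK3-/- cells; each point is a library and the line is the mean of 3. Mki67 lies at 84.2 to 89.6 CPM in J0_RIPK3 and lower in every other library, and Dgat2 ends higher in J7_RIPK3 than in J7_CTL.

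The 12 protein-coding genes with the highest fold change had between 0 and 12 reads (Plin1) over the 3 J0_RIPK3 libraries. Cidec, the droplet-fusing protein FSP27, had 1 read in J0_RIPK3 and 2443, 2282 and 2197 CPM in J7_RIPK3. Cfd, the secreted protease adipsin, had 1 read and then 1593, 1534 and 1314 CPM, and Mrap, a melanocortin receptor helper, 1 read and then 214, 206 and 197 CPM. Genes with 0 reads before differentiation included Retn (resistin, 388, 396 and 369 CPM), Pck1 (glyceroneogenesis, 114, 109 and 109 CPM) and Ffar4 (the long-chain fatty acid receptor, 45, 41.7 and 36.3 CPM). Against a floor of 3 reads over the 3 J0 libraries these were at least 10898-fold, at least 3152-fold and at least 1160.5-fold higher. Cidea and Ghrh also had 0 reads before and 70.6, 66.9 and 57.9 CPM and 44.6, 34.7 and 33.6 CPM after, at least at least 1842-fold and at least 1071-fold higher. Adipoq (adiponectin) had 8 reads and then 1843, 1860.5 and 1669 CPM. Cd36, the fatty acid transporter, and Plin1, the coat protein of the adipocyte droplet, went from 0.0443 to 574 CPM and from 0.134 to 1499 CPM. These 12 were picked among called genes whose groups do not overlap, with a mean of at least 5 CPM in the higher group.

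Genes of lipid storage rose both in droplet coats and in synthesis. Of 14 droplet coat and assembly genes tested, 10 rose, all over 2-fold against 22.6% of all genes, 3 fell, and the median was 3.15. The adipocyte coat Plin1, with Cidec and Cidea, led the list, while Plin3, a coat found in most cells, fell from 149.9 ± 5.02 to 101 ± 4.53 CPM, Hsd17b11 from 79.2 ± 0.888 to 44.1 ± 1.01 CPM and Tmem159 from 17.4 ± 0.707 to 13.5 ± 1.02 CPM. Plin2 rose from 137 ± 0.809 to 522 ± 36.8 CPM and Plin4 from 146 ± 6.19 to 1261 ± 35.6 CPM. Fitm2, which buds droplets from the endoplasmic reticulum, rose from 21.6 ± 0.924 to 361 ± 17.6 CPM, and Clstn3 from 1.06 ± 0.212 to 104 ± 3.61 CPM. In triglyceride synthesis and glyceroneogenesis, 16 of 16 genes tested rose, with a median of 4.09. Gpd1, which makes glycerol phosphate, went from 1.4 to 3078 CPM, Pck1 from 0 reads, and Mogat1 from 0 reads to 3.17, 4.51 and 3.62 CPM. The smallest rises were in Lpin2 (36 to 42.5 CPM), Gpat4 (120.3 to 211 CPM) and Agpat1 (64.6 to 142 CPM). Dgat2, which adds the last acyl chain, was at 6.42, 6.32 and 6.42 CPM in J0_RIPK3 and 1285, 1247 and 1162 CPM in J7_RIPK3. The same gene went from 7.88 ± 0.892 to 363 ± 9.55 CPM in control cells, so the log2 change was larger in RIPK3-/- cells by 2.09 ± 0.09 SE (interaction adjusted p = 3.23e-16). Dgat1, the other enzyme of that step, went from 24.8 to 401 CPM and from 24.6 to 454 CPM in control cells.

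Genes of lipid breakdown rose too: 22 of 26 lipolysis genes tested rose and 3 fell, against 49.3% and 48.5% of all genes, with a median of 3.55. The 3 lipases that act in turn, Pnpla2 (ATGL), Lipe (hormone-sensitive lipase) and Mgll, went from 13.1 ± 0.364 to 1424 ± 64.6 CPM, from 14.2 ± 0.806 to 1119 ± 24.3 CPM and from 0.695 ± 0.187 to 78.2 ± 6.02 CPM. Their brake G0s2, an inhibitor of ATGL, went from 0.276 ± 0.0689 to 734 ± 48.5 CPM, while the activator Abhd5 went from 43 ± 0.873 to 268 ± 19.5 CPM. Receptors that raise and lower cAMP appeared together. Adrb3, the β3-adrenergic receptor that raises it, had 1 read in J0_RIPK3 and 38.8, 37.3 and 39.2 CPM in J7_RIPK3. Hcar1 and Hcar2, the lactate and hydroxybutyrate receptors that lower it, went to 92, 99.7 and 90.9 CPM and to 51.3, 53.9 and 51.5 CPM from 6 and 4 reads. Ffar4, G0s2 and Adrb3 had the highest fold changes of the group. The 3 members that fell were Adcy3 from 12.3 ± 0.287 to 3.92 ± 0.529 CPM, Npr1 from 5 ± 0.58 to 2.41 ± 0.143 CPM and Gnas from 149.7 ± 15.1 to 92 ± 10.5 CPM, each part of cyclic nucleotide signalling.

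Genes of fuel oxidation rose less steeply, with few exceptions. Of 25 genes of fatty acid oxidation tested, 23 rose and 2 fell, with a median of 1.87. Summed over 25 genes, their level was 1739, 1736 and 1726 CPM in J0_RIPK3 and 6675, 6485 and 6184 CPM in J7_RIPK3. In control cells the sums were 1657, 1612 and 1612 CPM and 4829, 4714 and 4811 CPM, so each J7_RIPK3 library lies above each J7_CTL library. In the interaction test, 20 of 25 had a more positive change in RIPK3-/- cells and 0 a more negative one, against 18.4% and 20.6% of all 11027 genes tested. The 2 that fell were Cpt1a, the gate of the mitochondrial route, from 107 ± 3.55 to 53.3 ± 3.05 CPM, and Crot from 64 ± 1.87 to 56.1 ± 3.09 CPM. Ehhadh and Acaa1b, enzymes of the peroxisomal route, and Pex11a, which divides peroxisomes, led by fold, from 0.0394 to 4.63 CPM, from 0.502 to 45.6 CPM and from 13.2 to 221 CPM. Acaa1b was at 0.551, 0.523 and 0.433 CPM in J0_RIPK3 and 46.4, 46.2 and 44.3 CPM in J7_RIPK3, against 0.655 ± 0.132 to 3.97 ± 0.251 CPM in control cells (interaction 3.94 ± 0.30 SE, adjusted p = 1.36e-11), and its near-copy Acaa1a went from 102 ± 1.19 to 281 ± 11.6 CPM. Reads of such close copies can be split between them. Peroxisome genes as a whole counted 27 higher and 3 lower of 30 tested, with a median of 1.23. Pex16, which seeds the membrane, rose from 15.4 ± 0.916 to 178 ± 3.5 CPM, and Gnpat, the first enzyme of ether lipid synthesis, from 57.6 ± 2.4 to 439 ± 12.1 CPM, whereas the ether lipid enzymes Agps and Far1 fell from 107 ± 1.71 to 78.6 ± 5.12 CPM and from 129 ± 0.55 to 73.8 ± 3 CPM. In the authors' deposited table of pathways, Peroxisome had 70 genes up and 6 down of 76 (adjusted p = 7.1e-05).

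Genes that break down the branched-chain amino acids rose from the first step on. Of 28 genes tested, 27 rose, with a median of 1.64; only Bcat1, the cytosolic transaminase, fell (26.2 ± 2.34 to 13 ± 0.85 CPM). Bcat2, the mitochondrial transaminase of the first step, was at 39.4, 38.2 and 39.9 CPM in J0_RIPK3 and 611, 599 and 540.0 CPM in J7_RIPK3. Dbt, the core of the dehydrogenase complex of the second step, was at 10.4, 9.33 and 8.45 CPM in J0_RIPK3 and 183, 192 and 169 CPM in J7_RIPK3. Aldh6a1, on the valine branch, rose from 51.3 ± 0.995 to 564 ± 20.4 CPM. Bckdk, the kinase that silences that complex, was among the smallest of the rises, from 52.7 ± 0.866 to 72.2 ± 2.07 CPM. Ppm1k, the opposing phosphatase, rose from 7.98 ± 0.158 to 26 ± 0.503 CPM. In 19 of 28 the change was more positive than in control cells and in 0 more negative; the medians in the lines were 1.64 and 1.38. The authors' deposited table counts 44 genes up and 4 down in valine, leucine and isoleucine degradation (adjusted p = 0.00137).

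In the TCA cycle, 27 of 29 genes tested rose, against 49.3% of all genes, with a median of 1.86. Of the 29, 19 changed more positively than in control cells and 2 more negatively, against 18.4% and 20.6% of all genes. Pcx, the pyruvate carboxylase that refills the cycle, was at 137, 134 and 133 CPM in J0_RIPK3 and 2513, 2428 and 2291 CPM in J7_RIPK3, the steepest of the list. Idh3a and Pdhb followed, from 46.4 ± 0.967 to 488 ± 7.88 CPM and from 59.9 ± 2.04 to 516 ± 23.5 CPM. Idh2, the NADPH-making isocitrate dehydrogenase, and Pdk3 fell, from 272 ± 5.32 to 197 ± 12.4 CPM and from 60.8 ± 3.18 to 48.7 ± 3.35 CPM, and Suclg2 rose least, from 85.4 ± 4.4 to 115 ± 5.33 CPM. All 55 nuclear subunits of the respiratory chain tested rose, 43 of them over 2-fold, with a median of 1.37. Their summed level was 5125, 5228 and 5173 CPM in J0_RIPK3 and 16567, 15849.5 and 14566 CPM in J7_RIPK3. All 3 lie above the J7_CTL libraries, at 14509.7, 13963 and 14234 CPM, replicate 3 by the least; the deposited genes hold 94.4% of the reads of that library and 98.4% and 97.5% of replicates 1 and 2. The change was more positive than in control cells in 24 of 55 and more negative in 4; with library totals as the only scaling the first count was 15. Cox6a2, the muscle-type subunit, had the highest fold from a low level (0.101 to 3.13 CPM), then Cycs, cytochrome c itself (45.9 ± 0.895 to 577 ± 39.7 CPM), and Cyc1 (62.9 ± 1.22 to 391 ± 21.4 CPM). Ndufs4, Atp5h and Cox6c rose least, from 47.7 ± 0.509 to 64.1 ± 5.62 CPM, from 99.3 ± 6.14 to 156 ± 8.53 CPM and from 119 ± 3.97 to 187 ± 12.2 CPM.

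The subunits encoded in mitochondrial DNA changed by less. Of 8 mitochondrially encoded messenger RNAs tested, a list added after the values were seen, 7 rose and 1 fell, but the median was 0.22, and 0 changed over 2-fold. mt-Co1, the most abundant of them, fell from 8682 ± 351 to 7467 ± 193 CPM, and mt-Cytb rose from 3256 ± 149.7 to 4003 ± 59.9 CPM. mt-Nd2 rose from 1419 ± 51.4 to 1949 ± 13.8 CPM, and mt-Atp6, which overlaps mt-Atp8 and is therefore uncertain, had the highest fold and a wide spread (16.3, 19.2 and 18.2 CPM in J0_RIPK3 and 22.6, 37.1 and 37.9 CPM in J7_RIPK3). Without replicate 1 or 3 of J0_RIPK3, or replicate 1 or 3 of J7_RIPK3, 5 of the 8 were called higher. Mitochondrial ribosomal proteins, all made from nuclear genes, rose in 69 of 71 (median 0.97), whereas cytosolic ones fell in 68 of 73 (median -0.71). Both ribosomal lists were likewise added after the values were seen, and cytosolic ribosomal genes have many near-identical copies. Carriers of the inner membrane counted 25 higher and 7 lower of 32, with a median of 1.57. Slc25a34, an orphan carrier, Ucp3 and Slc25a33, a pyrimidine nucleotide carrier, led, from 0.0927 to 74.7 CPM, from 0.176 to 14 CPM and from 2.8 to 47.1 CPM. The calcium-regulated ATP-phosphate carrier Slc25a24 fell from 147 ± 2.91 to 24.6 ± 1.72 CPM, and Slc25a13 and Slc25a30 from 23.6 ± 1.04 to 12.8 ± 0.612 CPM and from 19.2 ± 1.37 to 11.3 ± 0.916 CPM. The adenine nucleotide translocases moved apart: Slc25a4 fell from 694 ± 7.61 to 552 ± 33.9 CPM and Slc25a5 rose from 266 ± 10 to 1233 ± 60 CPM. The citrate carrier Slc25a1, which exports carbon for fat synthesis, rose from 99.6 ± 2.37 to 904 ± 32.4 CPM.

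**Figure D2:**
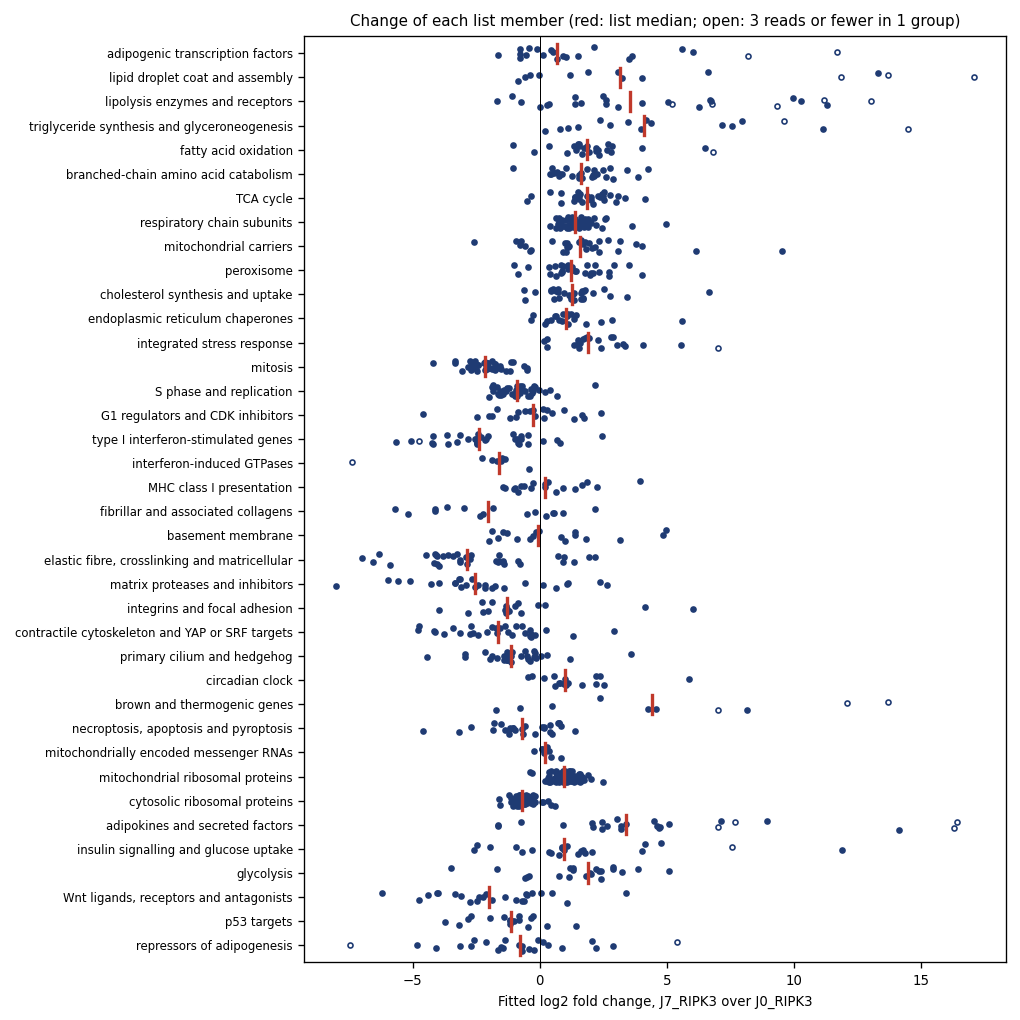
Fitted log2 fold change (J7_RIPK3 over J0_RIPK3) of every tested member of each gene group; red lines are medians and open points had 3 reads or fewer in 1 of the groups. All respiratory chain points lie above 0, all mitosis points below it, and collagens, basement membrane and G1 regulators spread to both sides.

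Cholesterol synthesis and uptake rose in 27 of 30 genes tested (median 1.28). The change was more negative than in control cells in 20 of 30 and more positive in 3, against 20.6% and 18.4% of all genes, and the medians in RIPK3-/- and control cells were 1.28 and 1.73. Their summed level was 2509, 2557 and 2503 CPM in J0_RIPK3 and 5175, 4988 and 4825 CPM in J7_RIPK3, and in control cells 2045, 1938 and 1989 CPM and 4746, 4742 and 4772 CPM. RIPK3-/- libraries lie above every control library at J0 and at J7. Sqle, the epoxidase that makes the sterol precursor, was at 90, 88.5 and 87.5 CPM in J0_RIPK3 and 216, 198 and 194 CPM in J7_RIPK3, with no overlap. With the genotype field as the grouping its log2 fold change was -0.57. The steepest were exporters, Abcg1 (0.677 to 69.5 CPM) and Abca1 (32 ± 1.46 to 354 ± 15 CPM). Fdps, next by fold, was read at 2.59 to 17.7 CPM, a level that near-identical copies make uncertain. Soat1, Npc2 and Scap fell, from 89.2 ± 0.719 to 58.8 ± 2.86 CPM, from 891 ± 16.8 to 607 ± 34.2 CPM and from 83.3 ± 5.31 to 74.8 ± 2.75 CPM. Among endoplasmic reticulum chaperones, 19 of 21 rose (median 1.02); 14 changed more negatively than in control cells and 3 more positively. Ero1l, an oxidase that serves disulfide formation, was the steepest (31.3, 33.6 and 35 CPM in J0_RIPK3 and 1841, 1625 and 1469.9 CPM in J7_RIPK3), followed by Xbp1 (49.8 ± 1.86 to 365 ± 11.5 CPM) and Dnajb9 (31.5 ± 0.279 to 170.4 ± 8.56 CPM). Pdia3 and Ero1lb fell, from 879 ± 38.4 to 749 ± 27 CPM and from 6.21 ± 0.84 to 4.96 ± 0.389 CPM, and Dnajb11 rose least, from 102 ± 5.03 to 118 ± 3.57 CPM. Ero1lb lost its call without J0_RIPK3 replicate 2 or 3 or J7_RIPK3 replicate 1 or 2, with log2 fold changes of -0.28 to -0.32.

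All 22 genes of the integrated stress response tested rose (median 1.90). Of these, 11 changed more positively than in control cells and 2 more negatively, against 18.4% and 20.6% of all genes. This pathway slows general translation and lets ATF4 switch on amino acid supply and stress genes. Atf4, its central factor, was at 150.3, 153 and 159.7 CPM in J0_RIPK3 and 491, 491 and 438 CPM in J7_RIPK3. Ddit3 (CHOP) was at 34.6, 37 and 37.1 CPM in J0_RIPK3 and 297, 269.8 and 248 CPM in J7_RIPK3, against 51.8 ± 3.04 to 184 ± 18.6 CPM in control cells (interaction 1.12 ± 0.09 SE, adjusted p = 2.61e-11). Fgf21 had 2 reads in J0_RIPK3 and 4.08, 3.17 and 3.93 CPM in J7_RIPK3, and Atf3 and Trib3 went from 0.582 to 28.3 CPM and from 16.1 to 279.6 CPM. Chac1, which degrades glutathione, rose from 8.08 ± 1.37 to 86.2 ± 7.56 CPM. Atf5, Sesn2 and Phgdh changed least, from 256 ± 10.1 to 295 ± 8.24 CPM, from 83.6 ± 2.53 to 103 ± 5.14 CPM and from 104 ± 2.1 to 129 ± 6.35 CPM. The authors' deposited table counts 39 genes up and 1 down in aminoacyl-tRNA biosynthesis (adjusted p = 0.00125).

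Of the 18 groups compared between the lines, the mitosis and S phase groups had a called difference in every gene tested. All 42 mitosis genes tested fell, 39 of them over 2-fold (24.8% of all genes did so), with a median of -2.14. Summed over 40 genes with counts in both lines, their level was 1457, 1491 and 1379.6 CPM in J0_RIPK3 and 448, 465 and 435 CPM in J7_RIPK3. In control cells the sums were 681, 689 and 684 CPM and 618, 605 and 629.6 CPM. The J0_RIPK3 libraries lie above every control library and the J7_RIPK3 libraries below every one. The change was more negative than in control cells in 40 of 40 genes, against 20.6% of all genes tested, and the median log2 fold changes were -2.12 in RIPK3-/- and -0.27 in control cells. In bulk libraries fewer dividing cells and less RNA in each of them cannot be told apart.

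**Figure D3:**
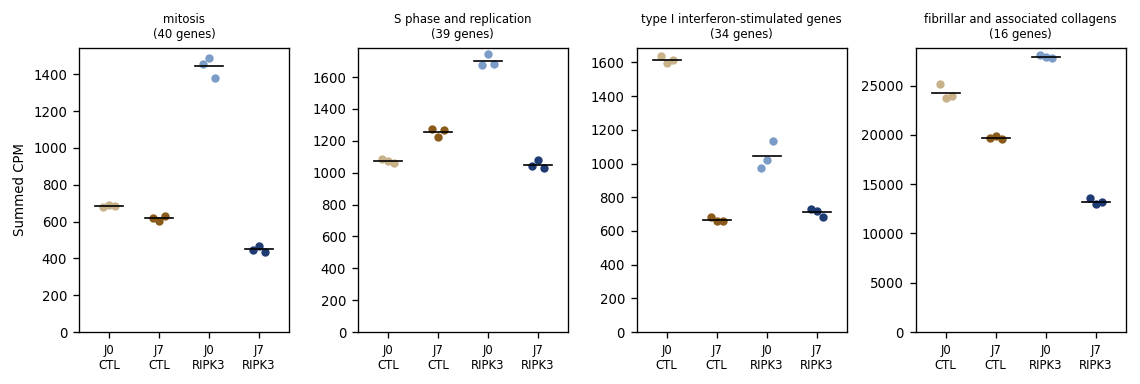
Summed CPM of 4 gene groups in each library of control and RIPK3-/- cells; points are libraries, lines are means of 3, and the axes start at 0. J0_RIPK3 is the highest group for mitosis, S phase and collagens, and J0_CTL for interferon-stimulated genes.

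Kif23, a motor of the last step of division, had the deepest fall, from 29 ± 1.56 to 1.59 ± 0.439 CPM (18.2-fold lower), and Kif11, the motor that pushes spindle poles apart, was at 2.44, 6.14 and 5.77 CPM in J0_RIPK3 and 0.708, 0.149 and 0.529 CPM in J7_RIPK3, low and widely spread. Cenpf, a kinetochore protein, was at 34, 30.2 and 30.8 CPM in J0_RIPK3 and 2.88, 2.77 and 3.81 CPM in J7_RIPK3, against 12.6 ± 0.508 to 7.36 ± 0.84 CPM in control cells (interaction -2.50 ± 0.16 SE, adjusted p = 3.82e-13). Mki67, the proliferation antigen Ki-67, was at 89.6, 88.1 and 84.2 CPM in J0_RIPK3 and 13, 14.8 and 15 CPM in J7_RIPK3, against 33.7 ± 2.65 to 25.6 ± 0.707 CPM in control cells (interaction -2.18 ± 0.09 SE). Top2a, the topoisomerase that untangles chromosomes, was at 101, 97.9 and 96.5 CPM in J0_RIPK3 and 26.9, 29.3 and 26 CPM in J7_RIPK3 and rose in control cells, from 40.3 ± 0.863 to 48.8 ± 1.69 CPM (interaction -2.09 ± 0.07 SE, adjusted p = 3.57e-19). Cdk1, Incenp and Bub3 fell least, from 49.1 ± 1.44 to 32.6 ± 0.585 CPM, from 46.1 ± 2.13 to 32.9 ± 0.576 CPM and from 81.7 ± 3.62 to 58.5 ± 3.98 CPM. Genes of mitosis share promoter elements bound by the DREAM and MuvB complexes and by NF-Y. The short core TTTGAA (searched on both strands) lay in 25 of 35 mitosis promoters matched (71.4%), against 18.1% of 27025 promoters of the same length in the RefSeq table (build GRCm38.p6, 250 bases before to 50 after the start). CCAAT (both strands; its last letter can be shared with the first of TTTGAA) lay in 26 of 35 (74.3%), against 37.9%. A longer motif, CAAAGGTCA (both strands), was searched in the lipid droplet, uptake and lipolysis group and lay in 0 of 38 promoters matched, against 0.5% of all. These are letter matches in a window, not shown sites. The windows of Kif23 and Kif11, the members with the largest fold that hold the core, show both motifs in capitals, CCAAT as its reverse complement ATTGG and, in Kif11, the core as TTCAAA:

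Kif23 (chr9:61946770-61946889, minus strand): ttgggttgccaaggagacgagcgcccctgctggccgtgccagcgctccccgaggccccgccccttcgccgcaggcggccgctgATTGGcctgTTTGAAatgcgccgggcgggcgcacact

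Kif11 (chr19:37376292-37376411, plus strand): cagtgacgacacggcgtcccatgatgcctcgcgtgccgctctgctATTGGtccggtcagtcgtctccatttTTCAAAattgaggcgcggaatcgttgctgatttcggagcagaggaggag

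S phase genes fell by less. Of 41 replication genes tested, 35 fell and 4 rose, with a median of -0.90. The sums over 39 genes were 1674, 1747 and 1682 CPM in J0_RIPK3 and 1042, 1082 and 1030.3 CPM in J7_RIPK3, while control cells went from 1084, 1075 and 1063 CPM to 1277, 1227 and 1270.0 CPM. The change was lower than in control cells in 38 of 39 genes and higher in 1. Pola1, Lig1 and Chaf1b fell most, from 38.4 ± 2.02 to 9.87 ± 0.217 CPM, from 47.8 ± 3.83 to 13.1 ± 0.439 CPM and from 18.2 ± 1.14 to 5.11 ± 0.549 CPM. Pcna, the sliding clamp, was at 81, 93 and 86.2 CPM in J0_RIPK3 and 77.3, 77.3 and 68.9 CPM in J7_RIPK3, a small but separate shift. Cdc6, which loads the helicase, went from 7.81 ± 0.666 to 6.18 ± 0.542 CPM and in control cells from 2.94 to 10.5 CPM (interaction -2.12 ± 0.17 SE, adjusted p = 2.64e-11). Against the list, Brca1 rose from 15.6 ± 0.131 to 71.5 ± 3.11 CPM, Rfc1 from 95.2 ± 1.6 to 156 ± 8.69 CPM and Cdc45 from 13.7 ± 1.62 to 18.6 ± 0.201 CPM. G1 regulators were mixed, 9 higher and 12 lower of 21, against 49.3% and 48.5% of all genes. Yet 17 of the 21 changed more negatively than in control cells and 2 more positively. Ccnd1 (cyclin D1), which couples growth signals to the cycle, was at 471, 469 and 461 CPM in J0_RIPK3 and 20.2, 21.9 and 17.4 CPM in J7_RIPK3. The repressors E2f7 and E2f8 fell from 12.3 ± 0.918 to 2.25 ± 0.616 CPM and from 8.23 ± 0.696 to 2.08 ± 0.214 CPM. E2f2, Myc and Cdkn2c rose, from 0.386 ± 0.321 to 2.02 ± 0.348 CPM, from 17.9 ± 0.938 to 60.8 ± 3.28 CPM and from 55 ± 2.67 to 178 ± 9.05 CPM. Cdkn1a (p21) fell slightly, from 355 ± 5.92 to 298 ± 23.9 CPM, and Cdkn2a, the INK4a/ARF locus, from 493 ± 19.2 to 155 ± 11.9 CPM.

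Interferon-stimulated genes fell in both lines. Of 34 tested, 30 fell and 4 rose, with a median of -2.37 (-2.64 in control cells). The change was more positive than in control cells in 20 of 34 and more negative in 1. The summed levels were 976, 1024 and 1131 CPM in J0_RIPK3, 1637, 1599 and 1616 CPM in J0_CTL, 729, 716 and 684 CPM in J7_RIPK3 and 680.0, 658 and 659 CPM in J7_CTL. The lines lie far apart at J0, with J0_CTL higher, and near each other at J7. The direction of this group rests on the titles: with the genotype field as the grouping, the J7 libraries had log2 fold changes of 2.34 for Oasl2, 2.14 for Ifit1 and 0.73 for Stat2. Oasl2, Oas2 and Oas1a, members of the family that senses double-stranded RNA, fell most, from 7.76 to 0.153 CPM, from 3.27 to 0.0946 CPM and from 0.824 to 0.0304 CPM. Ifit1, which binds foreign RNA caps, was at 6.18, 7.98 and 9.61 CPM in J0_RIPK3 and 0.417, 0.347 and 0.529 CPM in J7_RIPK3, against 35.5 ± 4.6 to 0.32 ± 0.0827 CPM in control cells (interaction 2.64 ± 0.52 SE, adjusted p = 0.000149). Members that rose included Isg20, an RNA exonuclease (2.59 ± 0.0806 to 14.7 ± 1.73 CPM), and Ifi27 (168 ± 7.81 to 300.4 ± 20.9 CPM), whereas the signal transducers Stat2 and Irf9 fell, from 65.8 ± 1.85 to 33.7 ± 2.19 CPM and from 33.5 ± 2.12 to 16.4 ± 2.11 CPM.

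Interferon acts on such genes through the interferon-stimulated response element, which a complex with STAT2 and IRF9 binds. Its core GAAANNGAA (both strands, where N is any base; overlapping matches counted) lay in 11 of 23 promoters of the list that could be matched (47.8%), against 8.6% of the 27025 promoters. The windows of Oas1a and Ifi44 (11.9 to 0.667 CPM), the members with the largest fold that hold it, carry the matches shown in capitals near the start of transcription:

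Oas1a (chr5:120907496-120907615, minus strand): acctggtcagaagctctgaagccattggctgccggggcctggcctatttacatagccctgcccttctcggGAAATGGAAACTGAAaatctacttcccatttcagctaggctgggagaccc

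Ifi44 (chr3:151749881-151750000, minus strand): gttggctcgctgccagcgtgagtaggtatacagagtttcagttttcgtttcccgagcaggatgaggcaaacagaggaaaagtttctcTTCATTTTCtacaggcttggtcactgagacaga

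All 8 interferon-induced GTPases tested fell (median -1.60), 5 of them less than in control cells; here too the genotype field as the grouping turned the direction, with 2.63 for Iigp1. Tgtp1 went from 0.815 to 0 CPM (at least 18.8-fold lower), and Irgm1 and Iigp1, which attack the vacuoles of intracellular parasites, from 8.21 ± 0.116 to 1.72 ± 0.075 CPM and from 4.04 ± 1.18 to 1.11 ± 0.47 CPM. Gbp2, Gbp3 and Gbp7 fell least, from 7.5 ± 0.598 to 5.8 ± 0.215 CPM, from 3.64 ± 1.13 to 1.46 ± 0.238 CPM and from 10.7 ± 1.57 to 3.98 ± 0.585 CPM. Genes of antigen presentation by MHC class I moved in both directions: of 19 genes tested, 10 rose and 8 fell, near the shares of all genes (49.3% and 48.5%), with a median of 0.19. H2-K1, a classical heavy chain, was at 17, 18.8 and 21.4 CPM in J0_RIPK3 and 104, 89 and 86 CPM in J7_RIPK3, and Nlrc5, the activator of these genes, rose from 4.65 ± 1.06 to 17.7 ± 0.447 CPM. H2 genes are close copies of each other, so single members are uncertain. Cd274 (PD-L1), an inhibitory ligand of T cells, was the steepest, from 1.58 ± 0.315 to 25.3 ± 0.496 CPM. B2m, the light chain that every class I molecule needs, was at 549, 573 and 595 CPM in J0_RIPK3 and 242, 228 and 215 CPM in J7_RIPK3. H2-T24 and Psmb8 also fell, from 1.09 ± 0.0895 to 0.398 ± 0.178 CPM and from 3.49 ± 0.0884 to 1.75 ± 0.396 CPM.

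Matrix genes moved in both directions. Of 16 fibrillar and associated collagen genes tested, 11 fell and 5 rose, with a median of -2.03. Their summed level went from 28058, 27928 and 27834 CPM to 13562, 12989.7 and 13136 CPM, and in control cells from 25111, 23736 and 23933 CPM to 19722, 19874 and 19528 CPM. The J7_RIPK3 libraries are the lowest of the 4 groups. The change was lower than in control cells in 12 of 16 genes and higher in 2. Col23a1, Col8a1 and Col11a1 fell most, from 21.8 ± 1.37 to 0.417 ± 0.0979 CPM, from 44.5 ± 2.6 to 1.24 ± 0.00616 CPM and from 33.8 ± 0.629 to 1.96 ± 0.25 CPM; Col8a1 fell from 12.2 to 2.63 CPM in control cells (interaction -2.90 ± 0.19 SE, adjusted p = 9.76e-13). Col1a2, a chain of the main fibrillar collagen, was at 9622, 9600.4 and 9508 CPM in J0_RIPK3 and 1910.0, 1937 and 1878 CPM in J7_RIPK3. The chains of collagen VI, the microfibril around fat cells, rose instead: Col6a3 was at 2031, 1924 and 2029.9 CPM in J0_RIPK3 and 3889, 3666 and 3827 CPM in J7_RIPK3, Col6a1 rose from 1888 ± 15.9 to 2304 ± 77.2 CPM and Col6a2 from 1290.2 ± 21.5 to 1897 ± 47.8 CPM. Col7a1 and Col5a3 rose from 6.86 ± 0.986 to 31.4 ± 4.94 CPM and from 300.5 ± 6.9 to 448 ± 16.3 CPM.

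Basement membrane genes were split, 8 higher and 9 lower of 18, near the 49.3% and 48.5% of all genes (median -0.09). The collagen IV chains of every basement membrane rose, Col4a1 from 1059 ± 19.2 to 2846 ± 75.3 CPM and Col4a2 from 755 ± 7.5 to 1537 ± 38.2 CPM, while Col4a5 fell from 320.4 ± 4.76 to 105 ± 5.03 CPM. Lamb3 and Col15a1 were among the steepest rises, from 1.49 ± 0.421 to 47.1 ± 1.23 CPM and from 1.88 ± 0.134 to 55.4 ± 1.36 CPM. Agrn and Lama2, proteins of nerve and muscle basement membranes, fell from 342 ± 14.3 to 86.4 ± 3.16 CPM and from 21.7 ± 0.536 to 5.98 ± 0.726 CPM. Of 18 integrin and adhesion genes tested, 14 fell and 3 rose (median -1.30). The laminin-binding chains rose: Itga6 was at 30.4, 32.1 and 31.6 CPM in J0_RIPK3 and 568, 572 and 572 CPM in J7_RIPK3, and Itga7 at 1.22, 1.7 and 2 CPM in J0_RIPK3 and 118, 106 and 109.9 CPM in J7_RIPK3. Their partner Itgb1 fell from 744 ± 13.3 to 304 ± 5.37 CPM, and receptors for fibronectin and vitronectin fell too, Itgav from 289 ± 10.3 to 62.7 ± 2.33 CPM, Itgb3 from 66.4 ± 3.37 to 9.37 ± 0.883 CPM and Itga5 from 245 ± 11.5 to 97.4 ± 3.82 CPM. Itga8 and Itgb7, at low levels, went from 3.29 to 0.211 CPM and from 0.833 to 0.169 CPM, and the kinase Ptk2 rose slightly, from 74.1 ± 0.362 to 88.2 ± 3.83 CPM.

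Elastic fibre, crosslinking and matricellular genes fell in 30 of 36 (median -2.88), and 22 changed more negatively than in control cells against 3 more positively. P4ha3, a collagen prolyl hydroxylase, was at 54.5, 50.7 and 51.7 CPM in J0_RIPK3 and 0.583, 0.297 and 0.34 CPM in J7_RIPK3; its relatives P4ha1 and P4ha2 rose, from 173 ± 7.46 to 287 ± 19.3 CPM and from 58.6 ± 1.78 to 111 ± 8.67 CPM. Fmod and Mfap4 followed P4ha3 at the bottom, from 57.3 to 0.605 CPM and from 11.5 to 0.134 CPM. Fbn1, the backbone of microfibrils, fell from 248 ± 3.64 to 15.2 ± 0.592 CPM, and Lox, which crosslinks collagen, from 1682 ± 23 to 180.1 ± 5.28 CPM. Plod1, Loxl2 and Ltbp3 rose most, from 141 ± 0.869 to 654 ± 45.1 CPM, from 0.765 ± 0.323 to 3.13 ± 0.402 CPM and from 329.9 ± 10.3 to 853 ± 40.3 CPM. Matrix proteases and their inhibitors fell together, 21 of 27 (median -2.55), 17 more negatively than in control cells and 4 more positively. Mmp9, a gelatinase, was at 32.5, 32.4 and 34.5 CPM in J0_RIPK3 and 0.0833, 0.0495 and 0.227 CPM in J7_RIPK3, and Mmp2 fell from 1934 ± 25.4 to 266 ± 13 CPM. Among the inhibitors, Timp3 and Timp2 fell from 37.2 ± 0.833 to 0.607 ± 0.0311 CPM and from 1496 ± 30 to 78.2 ± 3.06 CPM, and Timp4 rose from 7.14 ± 1.12 to 37.2 ± 1.13 CPM. Mmp3 also fell, from 17.9 ± 1.02 to 0.379 ± 0.121 CPM. Adam12 rose, from 107 ± 1.43 to 234 ± 4.4 CPM.

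Contractile and YAP or SRF target genes fell in 27 of 30 (median -1.63), 16 of 29 more negatively than in control cells and 1 more positively. Cnn2, a calponin, was at 324, 338 and 327 CPM in J0_RIPK3 and 12, 12.1 and 12.5 CPM in J7_RIPK3. Myl9 and Acta2 (smooth muscle actin) fell from 11.6 ± 0.735 to 0.435 ± 0.243 CPM and from 226 ± 9.84 to 13 ± 1.74 CPM, and Tpm1 (tropomyosin) from 676 ± 7.57 to 51.2 ± 1.93 CPM. Myh11 and Wwtr1 (TAZ) rose, from 1.46 ± 0.24 to 11.2 ± 0.632 CPM and from 95.8 ± 2.6 to 115 ± 5.56 CPM, and Tagln was read below 1 CPM in both groups (0.278 to 0.734 CPM), a level that overlapping genes make uncertain. The authors' deposited table lists 22 genes down and 7 up in the Hippo signalling pathway of multiple species (adjusted p = 0.00137). Primary cilium and hedgehog genes fell in 27 of 31 (median -1.15); 5 of 30 changed more negatively than in control cells and 3 more positively, both below the shares of all genes. Hedgehog signals are read at the primary cilium, an antenna of the fibroblast surface. Summed, these genes went from 2615, 2565 and 2671 CPM to 1139, 1115 and 1112 CPM, and in control cells from 2610.1, 2557 and 2617 CPM to 1237, 1228 and 1242 CPM. Gas1, a hedgehog coreceptor, was at 653, 618 and 681 CPM in J0_RIPK3 and 88.4, 90.9 and 82 CPM in J7_RIPK3, and the effectors Gli1 and Gli3 fell from 11.1 ± 1.65 to 0.507 ± 0.184 CPM and from 84 ± 4.95 to 11.2 ± 1.56 CPM. Ift20 and Bbs5 rose, from 32.6 ± 0.103 to 76.6 ± 3.28 CPM and from 9.94 ± 0.263 to 12.3 ± 0.723 CPM.

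Clock genes rose in 14 of 17, against 49.3% of all genes (median 0.99). Nfil3 and Nr1d1 (REV-ERBα) were among the steepest rises, from 7.76 ± 0.362 to 45.4 ± 3.4 CPM and from 17.1 ± 1.47 to 89.8 ± 2.67 CPM, and Tef alone fell, from 197 ± 2.47 to 161 ± 1.72 CPM. The activators Clock and Arntl (BMAL1) went from 80.3 ± 0.594 to 122 ± 3.23 CPM and from 17.6 ± 1.36 to 20 ± 0.87 CPM, and Arntl did not pass edgeR's test (adjusted p = 0.0526). Brown and thermogenic genes had 10 of 21 members tested, 8 higher and 2 lower (median 4.42), against 49.3% and 48.5% of all genes. Of these, 5 changed more positively than in control cells and 0 more negatively. Ucp1, Dio2, Prdm16 and Zic1, which mark brown or beige fat, were among the members not listed for these libraries. Cidea, Elovl3 (0 reads, then 22.4, 21.1 and 19.4 CPM) and Cox8b (0.0616 to 18.3 CPM) were the steepest. Cox7a1 went from 0.27 to 5.61 CPM, against 0.429 to 2.01 CPM in control cells (interaction 2.15 ± 0.44 SE, adjusted p = 0.000266). Ppargc1a and Ckb fell, Ckb from 0.993 ± 0.122 to 0.302 ± 0.324 CPM, and Letmd1 rose from 39.7 ± 1.34 to 56.4 ± 2.82 CPM. Of 28 genes of regulated cell death, 11 rose and 17 fell, against 49.3% and 48.5% of all genes (median -0.69). Gsdmd, the pore of pyroptosis, fell from 3.84 ± 0.744 to 0.17 ± 0.159 CPM, the death receptor Fas from 41.6 ± 1.14 to 4.7 ± 0.678 CPM and Casp12 from 36.7 ± 1.9 to 5.77 ± 0.68 CPM. Casp1, Mlkl and Ninj1 rose most, Casp1 from 0.403 ± 0.0295 to 1.08 ± 0.143 CPM and Ninj1, which ruptures dying cells, from 22 ± 0.785 to 38.2 ± 2.95 CPM; Casp8, the protease that cuts RIPK3, rose from 47.8 ± 1.72 to 81.6 ± 3.38 CPM.

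The 12 protein-coding genes with the deepest falls included secreted and surface proteins. Ptn, the growth factor pleiotrophin, was at 12342, 12849 and 13033 CPM in J0_RIPK3 and 136, 138 and 122 CPM in J7_RIPK3, the largest level lost among them. Il1rl1, the receptor of interleukin 33, was at 36.3, 37.4 and 39.4 CPM in J0_RIPK3 and 0.0833, 0.0495 and 0.113 CPM in J7_RIPK3, and Chst2, a sulfotransferase, at 96.9, 93.3 and 103 CPM in J0_RIPK3 and 0.708, 0.693 and 0.944 CPM in J7_RIPK3. Cldn19, Fam135b and Bnc1 had 1, 2 and 1 reads left in J7_RIPK3. Their levels were 649.7-fold (95% counting interval 116 to 25694), 426-fold (95% counting interval 118 to 3525) and 417-fold (95% counting interval 74.5 to 16496) lower. Mmp9 and P4ha3 are given above. Lgals7, Prokr1, Ren1 and AW551984 went from 9.36 to 0.0595 CPM, from 13.6 to 0.0834 CPM, from 6.84 to 0.0556 CPM and from 12.9 to 0.125 CPM. These 12 too were picked among called genes whose groups do not overlap, with a mean of at least 5 CPM in the higher group. Their changes in control cells pointed the same way, with log2 fold changes between -7.87 (Mmp9) and -4.67 (Ren1).

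**Figure D4:**
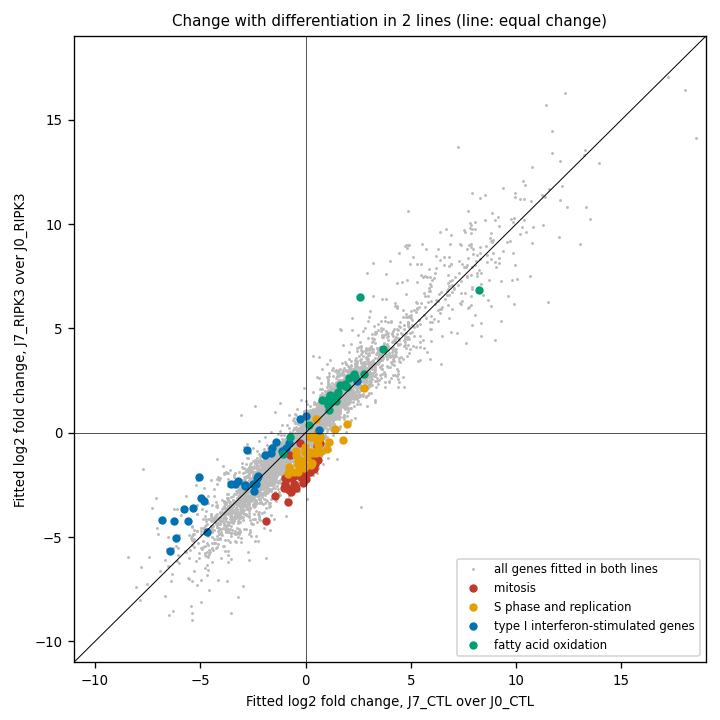
Fitted log2 fold change with differentiation in RIPK3-/- cells against that in control cells, 1 point per gene, with 4 gene groups in colour and the line of equal change. Mitosis genes lie below the line, as do 38 of 39 S phase genes by the test, and 20 of 25 fatty acid oxidation genes lie above it by the test.

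Among genes with counts in both lines, differentiation ran alike. These genes are listed because they passed a test of the authors, a selection that can raise the likeness. Of 10085 genes called in RIPK3-/- and in control cells, 9869 had the same direction, and the log2 fold changes correlated across genes with Pearson's r = 0.958 and Spearman's rho = 0.961, a description over genes, which are not independent. The 2 changes share no library. Sizes differed more often: 2028 genes (18.4%) had a more positive and 2270 (20.6%) a more negative change in RIPK3-/- cells. Other scalings moved these counts to 1665 and 2534 (library totals only) or to 2481 and 1950 (median-of-ratios size factors). Opposite calls with a called difference were found for 216 genes (1.96%), of which 162 fell in RIPK3-/- and rose in control cells and 54 did the reverse. The 10 largest of these were Ankle1, Clspn, Fancd2, Brip1, Pbk, Cdc6, Spc25, Top2a, Rad51ap1 and Ercc6l, known for DNA repair, replication or chromosome segregation. Fancd2, the hub of crosslink repair, was at 7.36, 7.71 and 7.34 CPM in J0_RIPK3 and 2.42, 3.52 and 3.81 CPM in J7_RIPK3 and went from 3.09 ± 0.139 to 6.67 ± 0.0945 CPM in control cells (interaction -2.27 ± 0.20 SE, adjusted p = 2.36e-10). Clspn, which relays replication stress, was at 15.1, 13.2 and 13.3 CPM in J0_RIPK3 and 4.13, 4.66 and 4.38 CPM in J7_RIPK3 and went from 4.93 ± 0.39 to 7.7 ± 0.894 CPM in control cells (interaction -2.27 ± 0.16 SE).

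**Figure D5:**
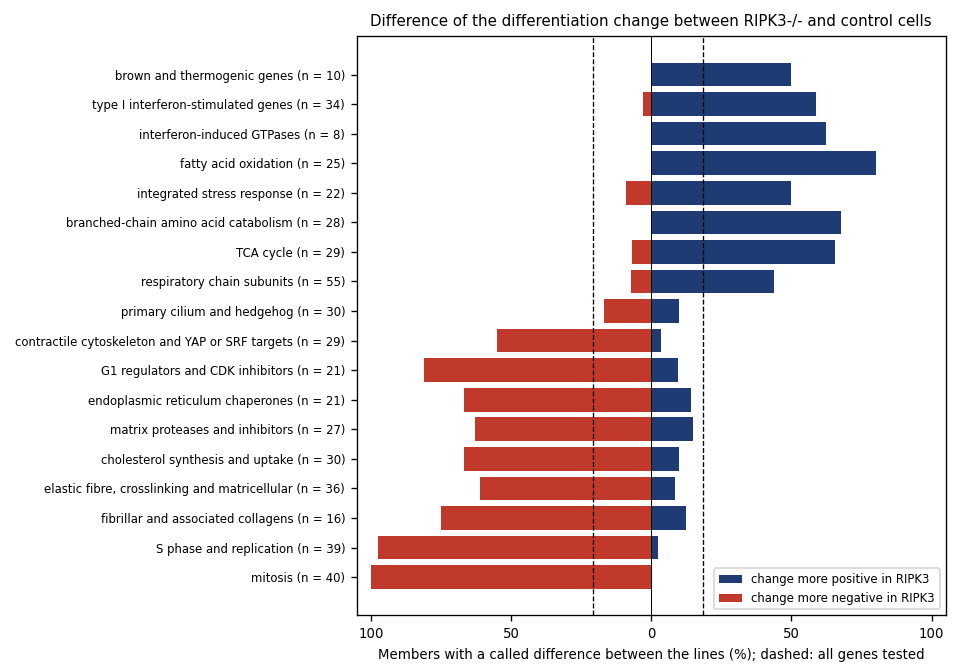
Share of tested members of each group with a called difference between the RIPK3-/- and control change, more positive to the right and more negative to the left, in percent; dashed lines are the shares of all genes tested. Mitosis reaches 40 of 40 on the negative side, and fatty acid oxidation 20 of 25 on the positive side.

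Sizes of the difference between lines were largest in genes with few reads in a group, where the fitted value depends on those reads. Car3 (a carbonic anhydrase of muscle and fat) went from 0.0547 to 12.9 CPM in RIPK3-/- and from 0.0955 to 0.738 CPM in control cells, Mb (myoglobin) from 0.00902 to 5.12 CPM and from 0.0324 to 0.626 CPM, and Greb1 from 0.0574 to 6.07 CPM and from 0.132 to 1.32 CPM. Retn reached 384 CPM from 0 reads, and in control cells went from 0.0516 to 323 CPM; Camp went from 0.00902 to 8.56 CPM and from 0.138 to 4.16 CPM and Kbtbd11 from 0.181 to 5.59 CPM and from 0.276 to 1.25 CPM. At the other end, Adipoq reached 1791 CPM against 1756 CPM, with no read in J0_CTL, so the fitted difference rests on 8 reads in J0_RIPK3. Fam107a and Mettl7b likewise had no read in J0_CTL and reached 22.6 and 28.4 CPM in J7_RIPK3 against 13.5 and 38.7 CPM in J7_CTL. Krt8, a keratin, went from 0.215 to 2.16 CPM and from 0.153 to 15.4 CPM, Cables1 from 0.283 to 11.2 CPM and from 0.0324 to 12.7 CPM, Zfp704 from 0.559 to 0.0265 CPM and from 5.43 to 2 CPM, and Slpi, a protease inhibitor, from 15.2 to 0.226 CPM and from 16.3 to 1.44 CPM.

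Among genes with 30 reads or more in every group, a filter chosen after the values were seen, Acaa1b had the most positive difference and Col8a1 the most negative. Rtp4, an interferon-induced chaperone of receptors, fell from 4.13 to 0.978 CPM, against 13 to 0.401 CPM in control cells (interaction 2.95 ± 0.36 SE, adjusted p = 1.45e-07). Stbd1, which tethers glycogen, was at 2.09, 1.79 and 1.57 CPM in J0_RIPK3 and 16.5, 15.3 and 13.5 CPM in J7_RIPK3 and reached only 2.93 CPM in control cells (interaction 2.29 ± 0.24 SE). Nrg4, a growth factor that fat cells secrete, was at 0.748, 0.61 and 0.541 CPM in J0_RIPK3 and 18.3, 15.6 and 15.6 CPM in J7_RIPK3, against 0.866 ± 0.126 to 5.04 ± 0.506 CPM in control cells (interaction 2.22 ± 0.29 SE). Ces1d, a carboxylesterase that hydrolyses stored triglyceride, was at 26.1, 25.8 and 23 CPM in J0_RIPK3 and 161, 164 and 139 CPM in J7_RIPK3, against 5.75 ± 0.234 to 9.38 ± 0.814 CPM in control cells (interaction 1.97 ± 0.12 SE), so it was higher in RIPK3-/- cells at J0 as well. Msln (mesothelin) went the other way, at 1.77, 0.959 and 1.38 CPM in J0_RIPK3 and 7.46, 6.44 and 5.4 CPM in J7_RIPK3 against 1.23 ± 0.38 to 31.6 ± 2.36 CPM in control cells (interaction -2.47 ± 0.28 SE). Neil3, Iqgap3, Spc24 and Nusap1, all known from replicating or dividing cells, had interactions of -2.48, -2.37, -2.32 and -2.28. L1cam, Tcim, Prdm11 and Ifi27l2a had interactions of 2.24, 2.15, 2.28 and 1.99.

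By FPKM, which allows levels of different genes to be compared per length, the most abundant listed transcript was Gm23935 in both groups (19590.2 to 10070.4 FPKM), a short RNA that the tables class as miRNA. It was followed in J0_RIPK3 by mt-Co1 (5619 to 4833 FPKM), Fth1 (ferritin heavy chain, 3994 to 3185 FPKM), Eef1a1 (3874 to 2415 FPKM) and Ptn (3711 to 38.4 FPKM). Rplp1 (3266 to 1599 FPKM), mt-Cytb (2846 to 3499 FPKM), mt-Nd1 (2342 to 2695 FPKM), Rplp0 (2035 to 1122 FPKM) and Lgals1 (galectin-1, 1411 to 572 FPKM) completed the first 10. In J7_RIPK3, 4 of the first 10 had not been among them before: Scd1, the desaturase of stored fat (24.2 to 1983 FPKM), Fabp4, the fatty acid chaperone of adipocytes (1.95 to 1864 FPKM), mt-Nd2 (1367 to 1877 FPKM) and the mitochondrial transfer RNA mt-Tp (234 to 2355 FPKM). Values are means of 3 libraries, and FPKM of such short RNAs rests on their length.

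Markers of other cell types were read in the same libraries. Of 14 epithelial markers 7 were tested and 6 rose, their sum going from 0.984 to 1.18 CPM in J0_RIPK3 to 28.7 to 31.8 CPM in J7_RIPK3. Epcam and Cdh1, which define epithelium, were not in the tables for these libraries. Skeletal muscle markers with counts (4 of 19, without Myod1 and Myog) summed to 33.8 to 35.5 CPM and then to 61.5 to 67.1 CPM. Osteoblast markers (10 of 12) summed to 239 to 248 CPM and then to 116 to 119 CPM, and chondrocyte markers (5 of 13) to 238 to 246 CPM and then to 56.6 to 62.4 CPM. Macrophage markers (5 of 16) summed to 38.9 to 43.9 CPM and then to 11.96 to 14.6 CPM, with Ptprc and Adgre1 not in the tables. Endothelial markers (4 of 14) were at 11.8 to 12.3 CPM and 12.1 to 14.8 CPM. Members moved in both directions within these sums. Called higher and lower were 3 and 7 of 10 osteoblast and 1 and 2 of 4 chondrocyte markers tested. For macrophage, endothelial and skeletal muscle markers they were 2 and 3 of 5, 2 and 1 of 4, and 3 and 1 of 4. The epithelial sum moves with the rise of Lamb3, and its part in that rise was not tested.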

How the data were processed

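The 6 RIPK3-/- and 6 control libraries were read from the authors' tables of pairwise comparisons, joined by gene identifier. Read counts per gene were made with featureCounts 1.5.0-p3 after alignment with HISAT2 to mm10, and DESeq2 and FastQC 0.11.9 were also used, per the submitters' processing notes. The authors' FPKM values (reads per kilobase and per library total) served to recover library totals. FPKM printed here for levels between genes were computed from the counts, the gene lengths and those totals. Of the authors' adjusted p-values, only those of their pathway table are printed, as deposited. Each table lists genes that passed the authors' test, so 12640 of 15194 genes had counts in all 6 libraries and 11243 in all 12. Over 88950 counts found in more than 1 table, 0 differed. Library totals were recovered from counts and FPKM.

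Counts were tested with edgeR 4.0.16 (R 4.3.3; quasi-likelihood, filterByExpr, TMM on the recovered totals, Benjamini-Hochberg adjusted p under 0.05), within the line and as the interaction with control cells. On simulated counts, 98% of genes changed 2-fold and 100% of those changed 4-fold were recovered in the RIPK3-/- comparison, and 88% and 100% in the interaction. Few genes were changed there, and genes with few reads were left out. These rates do not cover such genes, nor a comparison where most genes change. Medians, sums and motif counts were computed in Python 3.11.15. The gene groups and their members were chosen with earlier results of these data known. Of each group the 3 called members with the highest and the 3 with the lowest change are named, plus others for their role; some are not reported here. Other normalisations, filters, DESeq2 1.42.0, left-out libraries, a replicate block and grouping by the genotype field were alternatives. Outside that block, replicate numbers were not used to pair libraries. Promoter sequences are RefSeq's on GRCm38.p6.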

Additional observations from a re-analysis of the deposited data

Results flagged for a closer look

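The change with differentiation differed between RIPK3-/- and control cells in 2028 genes with a more positive and 2270 with a more negative change, by edgeR's test of the difference itself (the interaction, in log2 units, RIPK3-/- minus control). What drew attention in every case was this called difference between the lines, and no cause of any of them was tested.

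The targeted genes were among them, with Ripk3 at -0.51 and Mlkl at 0.41. Among adipocyte regulators and lipid genes the values were -0.62 for Pparg, -0.87 for Cebpa, 2.09 for Dgat2, 3.94 for Acaa1b, 1.97 for Ces1d, 2.15 for Cox7a1 and 1.12 for Ddit3. Among genes of replication and division they were -2.50 for Cenpf, -2.18 for Mki67, -2.09 for Top2a, -2.12 for Cdc6, -2.27 for Fancd2, -2.27 for Clspn, -2.48 for Neil3, -2.37 for Iqgap3, -2.32 for Spc24 and -2.28 for Nusap1. The other opposite calls had -2.49 for Ankle1, -2.17 for Brip1, -2.16 for Pbk, -2.12 for Spc25, -1.98 for Rad51ap1 and -1.96 for Ercc6l. Among interferon-related genes they were 2.64 for Ifit1, 2.95 for Rtp4 and 1.99 for Ifi27l2a. Other genes were Stbd1 at 2.29, Nrg4 at 2.22, Prdm11 at 2.28, L1cam at 2.24, Tcim at 2.15, Msln at -2.47 and Col8a1 at -2.90.

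The following values rest on few reads in at least 1 group and are no bound: Car3 4.74, Mb 4.30, Camp 4.16, Retn 4.0, Greb1 3.38, 6030408B16Rik 2.80, Kbtbd11 2.76, Fam107a -5.18, Adipoq -4.36, Mettl7b -3.91, Cldn19 -3.54, Krt8 -3.11, Cables1 -3.04, Zfp704 -2.65 and Slpi -2.50.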

How the results depend on the processing

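Of 112 counts of gene groups, 101 stayed within 1.5 times under the alternatives run for them, which did not include grouping J7 by the genotype field. Each count over all genes did so under every alternative run for it but that grouping. That grouping gave 1513 genes higher (796 over 2-fold) and 1341 lower (594 over 2-fold), with fewer genes having counts in both groups. It was run for the change with differentiation alone. All differences between the lines therefore rest on the titles. Of 245 named genes with a value there, 138 kept their direction and side of the threshold, 48 (Cebpa, Plin2 and Gas1 among them) kept the direction without passing the test, and 59 had the other sign: Acta2 1.74, Arntl -1.79, B2m 0.46, Brca1 -0.12, Casp12 0.61, Casp8 -0.08, Cdc45 -0.17, Cdkn2c -0.51, Ckb 0.75, Cnn2 0.95, Col11a1 0.71, Col5a3 -0.82, Col6a2 -0.07, Ero1l -0.01, Fdps -0.42, Fth1 0.63, Fzd4 -0.24, Gbp2 1.23, Gbp3 2.33, Gbp7 1.53, Grb10 2.18, Gsdmd 1.14, H2-T24 0.86, Hsd17b11 0.48, Idh2 0.18, Ifi27l2a 1.23, Ifit1 2.14, Igf1 0.60, Iigp1 2.63, Irf9 0.50, Irgm1 0.86, Itgb1 0.18, L1cam -0.86, Loxl2 -0.40, Mdm2 0.27, Mlkl -0.07, Oas1a 1.12, Oas2 1.72, Oasl2 2.34, P4ha1 -0.50, P4ha2 -0.06, Pfkfb2 0.64, Plin3 0.25, Prdm11 0.11, Psmb8 1.01, Ptk2 -0.25, Ptprf 2.17, Rfc1 -0.34, Rplp1 0.21, Rtp4 2.11, Sesn2 -1.45, Sqle -0.57, Stat2 0.73, Suclg2 -0.10, Tef 0.38, Tgtp1 0.90, Timp2 0.79, Zfp704 2.63, mt-Co1 0.35. Library totals as the only scaling gave 15 respiratory chain genes with a more positive change than in control cells, 1 branched-chain gene (also with DESeq2) with a more negative one and 1 G1 regulator with a more positive one. Median-of-ratios size factors gave 1 TCA cycle and 2 respiratory chain genes with a more negative change and 5 elastic fibre genes with a more positive one. The deposited table of this comparison alone left 1 chaperone lower, and a mean of at least 50 counts left 1 thermogenic and 13 Wnt genes lower, since fewer genes were tested. Leaving out 1 library at a time, genes with a more negative change numbered 0 to 1 (branched-chain; 1 without J7_RIPK3 replicate 2), 1 to 2 (TCA cycle; 1 without J0_RIPK3 2, J7_RIPK3 3, J0_CTL 2 or J7_CTL 1), 2 to 5 (respiratory chain; 2 without J7_RIPK3 3) and 1 to 2 (interferon-stimulated; 2 without J7_CTL 1). G1 regulators with a more positive change numbered 1 to 2, with 1 without J0_RIPK3 3 or J0_CTL 1, J7_CTL 1 or 3. Chaperones called lower numbered 1 to 2, and clock genes called lower 1 to 2, with 2 without J7_RIPK3 1. The cause of these shifts was not tested.

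The labels do not say whether libraries of the same number belong together. Deviations of same-numbered J0_RIPK3 and J7_RIPK3 libraries correlated at -0.036, 0.033 and 0.018. Such values show no shared deviation but cannot show how the libraries were handled. With a replicate block, 5813 genes were higher and 5718 lower, and 2031 and 2289 differed between the lines. Under the other alternatives, Ero1lb and Tagln (without J7_RIPK3 replicate 2) alone lost a call among the 318 named genes. Depth limits genes with few reads: among 50 genes with a printed difference between the lines, 4 (Car3, Mb, Mettl7b and Retn) lost the call under some left-out library.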

Other observations

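Secreted factors of fat cells, a group not described above, counted 22 higher and 3 lower of 25 tested, against 49.3% and 48.5% of all genes, with a median log2 fold change of 3.38. Behind Cfd, Retn and Adipoq, the acute-phase proteins Orm1 and Hp went from 0.249 to 120.4 CPM and from 2.93 to 409 CPM. Lpl, the lipase that frees fatty acids from lipoproteins, rose from 277 ± 5.43 to 9679.6 ± 216 CPM and Nampt, which makes an NAD precursor, from 58.7 ± 1.42 to 543 ± 41 CPM. Lep (leptin) was at 0, 0 and 0 CPM in J0_RIPK3 and 0.917, 1.09 and 0.944 CPM in J7_RIPK3, a low level after differentiation. Angptl2, C1qtnf6 and Igf1 fell, from 288 ± 6.65 to 92.8 ± 4.52 CPM, from 117 ± 2.76 to 38.3 ± 0.737 CPM and from 85.9 ± 5.65 to 52.2 ± 1.73 CPM. In insulin signalling and glucose uptake, 17 of 23 rose and 6 fell. Slc2a4 (GLUT4, the insulin-responsive glucose transporter) was at 0.0394, 0.0872 and 0.0541 CPM in J0_RIPK3 and 248, 241 and 239 CPM in J7_RIPK3. Irs3 and Tusc5, which sorts GLUT4, went from 0.0221 to 5.39 CPM and from 3.72 ± 0.372 to 103 ± 1.84 CPM. The receptor-binding adaptors Grb14 and Grb10, which damp the insulin receptor, fell from 29.1 ± 1.44 to 4.87 ± 0.382 CPM and from 6.45 ± 0.798 to 1.68 ± 0.349 CPM, and Ptprf, a phosphatase, from 0.88 ± 0.106 to 0.157 ± 0.0637 CPM. Glycolysis counted 17 higher and 5 lower of 22, and its isozymes moved apart: Hk2 rose from 11.9 ± 0.671 to 415 ± 11.9 CPM and Hk1 fell from 127 ± 2.95 to 96.5 ± 6.01 CPM, Pfkl rose from 83.7 ± 3.91 to 623 ± 20.8 CPM and Pfkm fell from 132 ± 5.36 to 96.2 ± 3.86 CPM. Pfkfb3, which makes the activator of phosphofructokinase, rose from 6.88 ± 0.23 to 102 ± 2.62 CPM. Aldoc, Eno3 and Pfkfb2 fell, from 0.669 to 0.0634 CPM, from 36.4 ± 0.503 to 11.5 ± 0.555 CPM and from 17.8 ± 0.779 to 12.2 ± 1.18 CPM, and Gapdh was read at only 8.53 to 81.7 CPM, which near-identical copies make uncertain.

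Repressors of adipogenesis fell in 16 of 24 and rose in 7, against 48.5% and 49.3% of all genes (median -0.76). Dlk1 (Pref-1) was read at 0.669, 0.697 and 1.08 CPM in J0_RIPK3 and 0, 0 and 0 CPM in J7_RIPK3, at least 20.2-fold lower, Gata2 fell from 28.2 ± 1.83 to 0.973 ± 0.422 CPM and Zfp521 from 180.2 ± 3.2 to 10.9 ± 1.03 CPM. Irf4, Ddit3 and Bhlhe40 had the highest fold changes of that list, Irf4 from 0.018 to 1.2 CPM and Bhlhe40 from 45.2 ± 0.906 to 215 ± 8.24 CPM. Wnt ligands, receptors and antagonists fell in 20 of 24 (median -2.0), against 48.5% of all genes. Wnt signals hold preadipocytes undifferentiated, but the list joins ligands with their antagonists, so these counts give no direction of the signal. Sfrp2 was at 57, 56.4 and 55.3 CPM in J0_RIPK3 and 0.792, 0.594 and 0.906 CPM in J7_RIPK3, Dkk3 went from 1.64 to 0.0608 CPM and Rspo2 from 13.3 to 0.625 CPM, while Sfrp5, Lef1 and Fzd4 rose, from 0.113 ± 0.0934 to 1.15 ± 0.278 CPM, from 7.19 ± 0.572 to 15.2 ± 0.322 CPM and from 55.9 ± 1.88 to 80.4 ± 1.51 CPM. Targets of p53 fell in 16 of 18, against 48.5% of all genes (median -1.13), with Plk2 from 186 ± 5.02 to 14.4 ± 0.619 CPM, Fas as given above and Gtse1 from 28.8 ± 2.49 to 4.11 ± 0.524 CPM. Btg2 and Sesn2 rose, Btg2 from 31.1 ± 2.59 to 84.5 ± 2.63 CPM, and Cdkn1a fell least. Mdm2, the ligase that degrades p53, was at 1817, 1772 and 1844 CPM in J0_RIPK3 and 1388, 1438 and 1472 CPM in J7_RIPK3, a high level in every library.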
